A study of Homo sapiens with 12 samples.

Results

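The human melanoma cell line A375 was profiled after 8 h of crizotinib against its vehicle control. Crizotinib is a small molecule that blocks the ATP sites of the receptor tyrosine kinases MET, ALK and ROS1. The comparison used 5 of the 12 Illumina bead arrays of the study, 3 labelled crizotinib 8 h and 2 labelled control, chosen by their titles. The other 7 arrays, 2 of crizotinib at 24 h, 3 of ciclopirox at 8 h and 2 of ciclopirox at 24 h, entered the shared estimate of spread. Ciclopirox is an antifungal agent that binds iron. Each drug was given at the concentration that inhibits the cells by 75%, a value determined at 72 h, and control cells received DMSO, the solvent. The labels state no time for the control arrays. Every group is the same established line, which carries an activating BRAF mutation, so the data describe 1 tumour line without other tissue. The replicate titles do not name separate cultures, and the p-values below therefore measure the spread between arrays, which may be technical.

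The names of the arrays came from the deposited table of normalized intensities. That table conflicted with a deposited scanner table. Only 2 of the 12 arrays, both controls, followed the scanner column given in their own description. Crizotinib 8 h replicates 2 and 3 followed columns that were also described as crizotinib 8 h, and replicate 1 followed a column described as ciclopirox 24 h. Under the names of the normalized table, each of the 12 arrays correlated best with another array of its group. Median intensities were 28.3 to 29.6 over the 12 arrays, with 14469 to 14730 probes above background.

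Of the markers of the melanocyte lineage, SOX10, a transcription factor of neural crest and pigment cells, was well measured. MITF, the master regulator of pigment cells, lay near the background limit of 40.3, with intensities of 46.0, 40.6 and 34.1 on the crizotinib arrays and 35.8 and 52.0 on the control arrays. The pigment genes TYR, TYRP1, PMEL and MLANA did not pass the detection filter. Markers of other cell types were scarce. The fibroblast collagens COL1A1, COL1A2 and COL3A1 and the leukocyte gene PTPRC did not pass the filter, and the 1 measured endothelial marker and the 1 measured keratinocyte marker were below background. The 5 measured fibroblast markers of 10 summed to 243.0 to 253.4 on crizotinib arrays and 217.5 to 237.2 on control arrays, and 1 of them, LUM, was called higher (log2 change 0.50 ± 0.12 SE, limma adjusted p = 0.0284), but not when either control array or crizotinib replicate 1 or 2 was left out (adjusted p of 0.0771 to 0.128). The 3 measured leukocyte markers of 10 summed to 855.5 to 975.2 with crizotinib and 860.9 to 887.1 in control, with 0 called in limma and 0 at an unadjusted p under 0.05. In bulk RNA, fewer cells of a type and less RNA per cell cannot be told apart.

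MET is the receptor for hepatocyte growth factor and signals through adaptors to the ERK and PI3K pathways. ERK signalling raises immediate and delayed early genes, many of which encode its own feedback inhibitors, while PI3K signalling through AKT keeps FOXO transcription factors out of the nucleus and favours growth and lipid synthesis. In A375 cells the mutated BRAF feeds the ERK pathway below the receptors.

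Of 10330 genes tested, 1012 differed at 8 h of crizotinib (9.8%, limma with Benjamini-Hochberg adjusted p under 0.05). Of these, 460 were higher (4.45%) and 552 lower (5.34%). With the scanner signals scaled to the median of all probes, 1009 genes were called, of which 18.3% were higher, against 45.5% in the normalized table. The changes were small. The median called change was 0.51 on the log2 scale and 489 calls were under 0.5, while 17 genes rose and 27 fell by more than 1. The median change over all genes was -0.03. Crizotinib and control arrays did not overlap in 44% of all genes, including each of the 1012 called. Control arrays were few and weighed heavily, with 216 genes called without control replicate 1 and 274 without control replicate 2. The count was 517, 409 and 869 without crizotinib replicates 1, 2 and 3, and 112 calls (48 higher, 64 lower) remained with any of the 5 arrays left out. With scanner columns named by the sample descriptions, 0 genes were called in limma and 1539 had an unadjusted p under 0.05. Limited to the arrays that both tables put in the same group, 10 genes were called, CCNA1, HMGCS1, IL24, INSIG1, PTPRR and TXNIP higher and CXCL8, HAS3, HES1 and PMEPA1 lower.

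**Figure D1:**
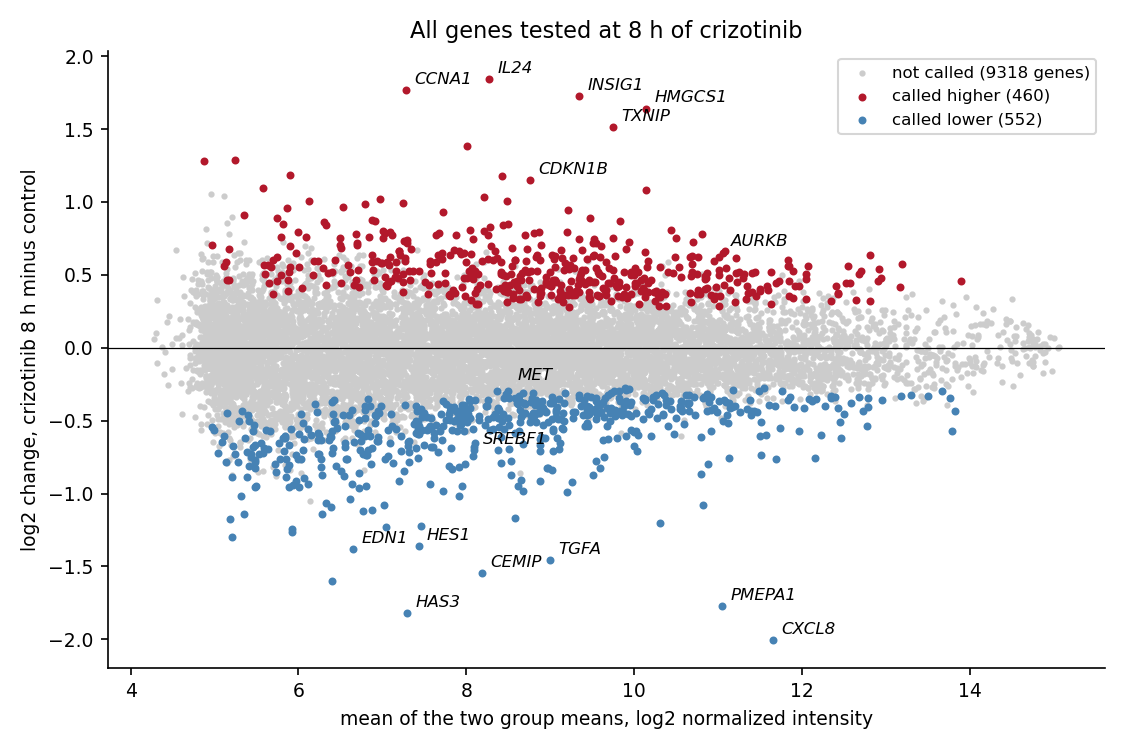
Log2 change of each of the 10330 genes at 8 h of crizotinib against control (vertical axis) by the mean of the group means of log2 normalized intensity (horizontal axis), with called genes coloured. Most of the 1012 called genes moved by less than 1 in either direction, and CXCL8 (-2.0) and IL24 (1.84) stand at the extremes.

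The drug's own targets were examined first. MET had intensities of 303, 334 and 358 on the crizotinib arrays, against 439 and 362 on the control arrays. The highest crizotinib array was close to the lower control, and the difference of -0.27 ± 0.12 (SE) on the log2 scale was not called (limma adjusted p = 0.182). ALK was not above background on any of the 5 arrays and ROS1 did not pass the detection filter. Transcript levels do not report kinase activity.

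Among 12 measured receptor tyrosine kinases of 21 listed, 1 was higher and 0 were lower, 8.33% called against 9.8% of all genes, with a median of 0.02. The gene called was EGFR, the epidermal growth factor receptor. Its intensities were 80.1, 81.8 and 91.1 with crizotinib and 47.8 and 49.4 in control, all crizotinib arrays lying above both controls (log2 change 0.79 ± 0.09 SE, limma adjusted p = 0.00101). A second EGFR probe gave -0.15. Among 12 adaptors and negative regulators of MET, 1 was higher and 1 lower, 16.7% called against 9.8% of all genes. GAB2, a docking protein that links receptors to PI3K and the phosphatase SHP2, rose. It had 466, 503 and 482 on the crizotinib arrays and 265 and 273 on the control arrays, without overlap (log2 change 0.85 ± 0.10 SE, limma adjusted p = 0.00125). ERRFI1, an inhibitor of EGFR family kinases, fell by 0.38 on the log2 scale (limma adjusted p = 0.022), a call lost without control replicate 1 (adjusted p = 0.156) or crizotinib replicate 2 (adjusted p = 0.0661).

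ERK outputs moved in both directions. Of 21 measured genes, 2 were higher and 5 lower, 33.3% called against 9.8% of all genes, and the median was -0.21, against -0.03 over all genes. IER3, an immediate early gene, had 3304, 3363 and 3830 with crizotinib, against 5747 and 6039 in control. Every crizotinib array was well below both controls (log2 change -0.75 ± 0.09 SE, limma adjusted p = 0.00203). DUSP6, the phosphatase that inactivates ERK in the cytoplasm, had 829, 785 and 953 with crizotinib and 1396 and 1153 in control, also without overlap (log2 change -0.57 ± 0.13 SE, limma adjusted p = 0.0231). PHLDA1 (-0.62), an early response gene, the feedback inhibitor SPRY2 (-0.46) and the G1 cyclin gene CCND1 (-0.36) were lower as well. MYC, a growth-promoting transcription factor, went the other way, with 926, 910.3 and 1009 on crizotinib arrays and 543 and 586 on control arrays (log2 change 0.75 ± 0.09 SE, limma adjusted p = 0.00175). DUSP5, the nuclear ERK phosphatase, also rose, with 1039, 940.0 and 897 on crizotinib arrays and 597 and 564 on control arrays and no overlap (log2 change 0.72 ± 0.09 SE, limma adjusted p = 0.00192). With any array left out DUSP5, MYC and IER3 kept their calls, while the number lower was 1 without control replicate 1, 2 without control replicate 2, crizotinib replicate 1 or crizotinib replicate 2, and 5 without crizotinib replicate 3.

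Of 4 measured ligands of the EGFR family, TGFA, transforming growth factor alpha, was called. It had 288, 307 and 332 on crizotinib arrays and 929.9 and 773 on control arrays. These did not overlap, and TGFA fell by 1.46 on the log2 scale (SE 0.12, limma adjusted p = 0.000163), with -1.10 at a second probe.

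Of 19 measured FOXO targets and PI3K feedback genes, 4 rose and 2 fell, 31.6% called against 9.8% of all genes, with a median of 0.01. TXNIP, an arrestin-family protein that binds thioredoxin and restrains glucose uptake, had 1611, 1363 and 1374 with crizotinib, against 472 and 544 in control. The lowest crizotinib array was above the higher control by a wide margin, a 2.85-fold rise (log2 change 1.51 ± 0.12 SE, limma adjusted p = 0.000161). CDKN1B, which encodes the CDK inhibitor p27, had 630.1, 677 and 620.2 on the crizotinib arrays and 299.6 and 279.8 on the control arrays. This was a 2.22-fold rise (log2 change 1.15 ± 0.16 SE, limma adjusted p = 0.00331), and a second probe gave 0.26. IRS2, the insulin receptor substrate, had 985, 1063 and 918 with crizotinib and 588 and 629.5 in control (log2 change 0.70 ± 0.10 SE, limma adjusted p = 0.00296). KLF6, a zinc finger transcription factor, had 1822, 1828 and 1980 with crizotinib and 1084 and 1143 in control (log2 change 0.75 ± 0.09 SE, limma adjusted p = 0.00178). In both genes all crizotinib arrays exceeded both controls, and all 4 rises kept their call with any array left out. The p53 and FOXO target SESN1 (-0.46) and the repressor BCL6 (-0.37) were lower, but 0 of these 2 calls remained when either control array was left out, and 1 remained without each crizotinib array.

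Cholesterol synthesis builds sterols from acetyl-CoA through mevalonate and squalene. Its genes are driven by the sterol-regulated factors SREBF2 and SREBF1, which INSIG1, an endoplasmic reticulum protein, retains when sterols are plentiful. The promoters of HMGCS1 and INSIG1 are shown here because these genes were the 2 largest rises of the list. Both carry CCAAT boxes, the element bound by NF-Y, a factor that works beside the sterol-regulated factors at such promoters. The sequences are from RefSeq (GRCh38.p14) and run from 250 bases before to 50 after the start of the gene, INSIG1 at chr7:155297628-155297927 on the plus strand and HMGCS1 at chr5:43313363-43313662 on the minus strand. Capitals mark CCAAT on either strand, read here as ATTGG, the reverse complement.
INSIG1: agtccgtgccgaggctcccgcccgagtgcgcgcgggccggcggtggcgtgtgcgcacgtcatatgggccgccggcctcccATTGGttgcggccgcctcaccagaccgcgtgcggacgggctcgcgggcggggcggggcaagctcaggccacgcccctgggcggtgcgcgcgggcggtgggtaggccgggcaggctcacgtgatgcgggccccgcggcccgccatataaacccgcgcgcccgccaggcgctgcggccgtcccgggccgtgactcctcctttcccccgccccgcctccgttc
HMGCS1: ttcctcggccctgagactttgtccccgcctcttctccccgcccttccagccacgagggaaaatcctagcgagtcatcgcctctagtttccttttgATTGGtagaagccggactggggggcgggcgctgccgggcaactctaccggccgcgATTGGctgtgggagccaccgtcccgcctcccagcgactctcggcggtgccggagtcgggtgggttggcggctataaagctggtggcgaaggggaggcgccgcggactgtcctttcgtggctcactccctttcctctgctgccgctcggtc
CCAAT was found at 1 place in INSIG1 (-170 to -166 from the start) and 2 places in HMGCS1 (-155 to -151 and -100 to -96), both strands being searched. It was present in 14 of 20 promoters of the list (70.0%), in 35.7% of the 27305 promoters of the table and in 37.6% of genes tested. The share was not particular to this list. Among other lists it ran as high as 12 of 14 for endoplasmic reticulum chaperones (85.7%), where 4 genes were called lower and 0 higher. For ERK outputs it was 3 of 13 (23.1%). TCACNCCAC, a sterol element, was found in 0 places in either promoter, in 1 of 20 of the list and in 1.15% of all promoters. A match describes letters in this window only.

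Of 22 measured cholesterol genes of 30 listed, 12 rose and 1 fell, 59.1% against 9.8% of all genes, and the median was 0.40, against -0.03 over all genes. INSIG1 had 1224, 1114 and 1214 on crizotinib arrays, against 385 and 332 on control arrays. The rise was 3.31-fold with no overlap (log2 change 1.73 ± 0.09 SE, limma adjusted p = 1.25e-05), and 1.10 at a second probe. HMGCS1, the synthase that makes HMG-CoA, had 1988, 1957 and 2047 with crizotinib and 609.8 and 672 in control. It had the smallest adjusted p of all genes and a 3.12-fold rise (log2 change 1.64 ± 0.08 SE, limma adjusted p = 1.19e-05). MSMO1, the sterol C4-methyl oxidase, had 517, 470.4 and 567 with crizotinib and 234 and 224 in control, without overlap (log2 change 1.18 ± 0.11 SE, limma adjusted p = 0.000508). SQLE, squalene epoxidase, had 1057, 930.1 and 911 with crizotinib and 575 and 471 in control (log2 change 0.89 ± 0.11 SE, limma adjusted p = 0.00203). LSS, which closes the sterol rings, had 369.5, 396 and 406 with crizotinib and 203 and 247 in control (log2 change 0.80 ± 0.12 SE, limma adjusted p = 0.00432). In both enzymes every crizotinib array stood above both controls.

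Of the 22 measured cholesterol genes, 15 had a positive and 7 a negative difference, against 4699 and 5631 of all 10330 genes. Smaller rises were called at further steps of the route. On the log2 scale they were 0.76 for MVK, mevalonate kinase, 0.55 for ACAT2, the first thiolase, 0.52 for SC5D, 0.41 for TM7SF2, 0.38 for EBP and 0.28 for NSDHL, all late sterol enzymes, and 0.42 for NPC1, which exports cholesterol from lysosomes. DHCR7, the last enzyme of the route, had a difference of 0.48 and was not called (limma adjusted p = 0.075). SREBF2 itself lay near background with a difference of -0.01. SREBF1 was the only gene of the list called lower. Its intensities were 213, 210.2 and 221 with crizotinib and 323 and 376 in control, without overlap (log2 change -0.70 ± 0.10 SE, limma adjusted p = 0.00313), and a second probe gave -1.08. MYLIP, a ligase that degrades the LDL receptor and is a target of the sterol-sensing LXR receptors, also fell, the only call of 4 measured LXR targets. It had 242, 319 and 261 with crizotinib and 492 and 505 in control (log2 change -0.87 ± 0.11 SE, limma adjusted p = 0.00192). The calls of HMGCS1, INSIG1, MSMO1, SQLE, LSS and SREBF1 held with any array left out. The smaller rises each lost their call in at least 1 of these 5 fits, and those of EBP and NSDHL in all 5. The number of cholesterol genes higher was 5 without control replicate 1 and 8 or 9 without any other array. It was 7 with scaling to the median of all probes, with 1 lower, and 2 (HMGCS1 and INSIG1) on the arrays that both tables put in the same group.

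**Figure D2:**
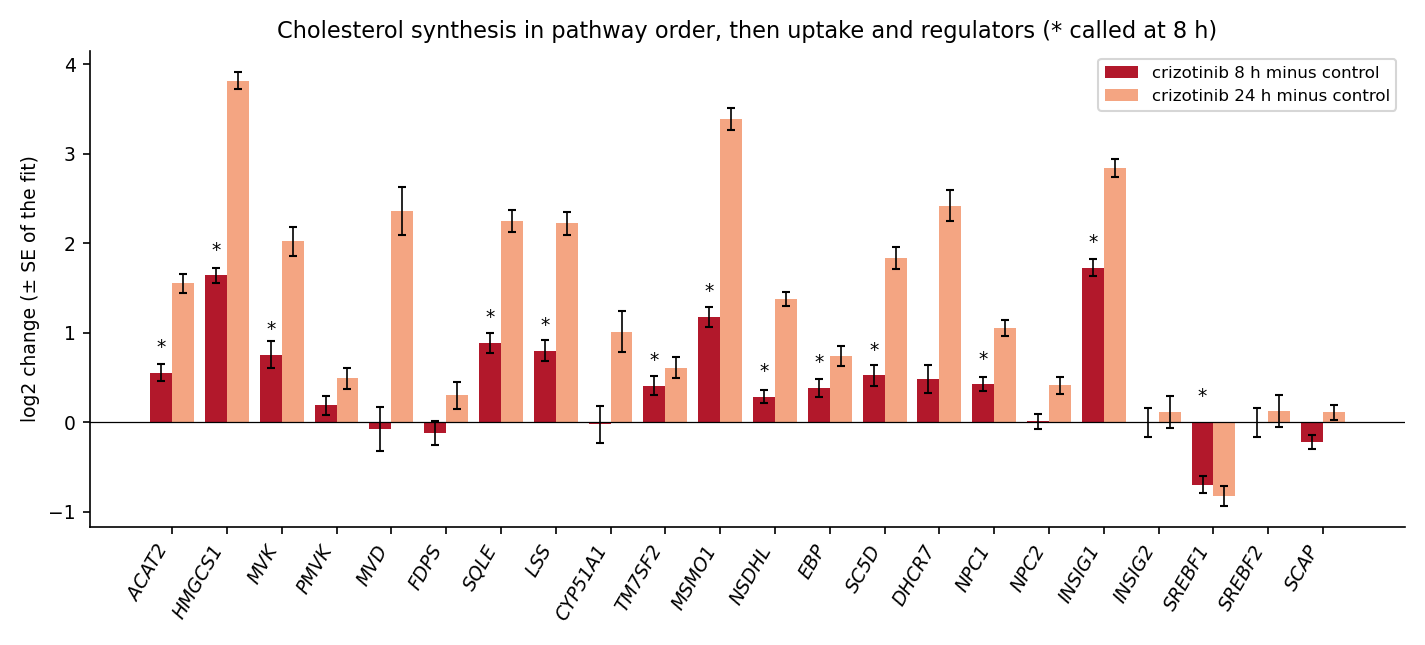
Log2 change against control (vertical axis) of each of the 22 measured cholesterol genes, as bars with the standard error of the fit, at 8 h and 24 h of crizotinib, which share the 2 control arrays; an asterisk marks a call at 8 h. INSIG1 (1.73) and HMGCS1 (1.64) stand highest at 8 h and SREBF1 (-0.70) lowest.

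Fatty acid genes showed a mixed picture. Of 12 measured, 3 rose and 0 fell, against 9.8% of all genes called, but the median was -0.16, so most members lay slightly below control. LPIN1, the phosphatidate phosphatase of triglyceride synthesis, had 1648, 1483 and 1802 with crizotinib, against 821 and 733 in control. All crizotinib arrays were far above both controls, a 2.11-fold rise (log2 change 1.08 ± 0.10 SE, limma adjusted p = 0.000597) that held with any array left out. SCD, the stearoyl-CoA desaturase, was higher by 0.56 and FADS1, a desaturase of polyunsaturated fats, by 0.39. The number called was 1 without control replicate 2 and 2 without control replicate 1 or crizotinib replicate 2. Of 25 lysosomal genes, the melanosome glycoprotein gene GPNMB, the sialidase gene NEU1 and the autophagy receptor gene SQSTM1 were higher, by 0.77, 0.64 and 0.46 on the log2 scale, with a median of -0.07 over the list. A call in 3 of 25 is near the 9.8% of all genes. Without control replicate 1 or control replicate 2 only 1 of the 3 was called.

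Genes of mitosis were mostly above control at 8 h. Of 42 measured, 16 rose and 0 fell, 38.1% against 9.8% of all genes, and the median was 0.34, against -0.03 over all genes. A positive difference was found for 39 of the 42, against 4699 of all 10330 genes. Many of these genes share a promoter element, the cell cycle genes homology region, spelled TTTGAA, at which the DREAM complex holds them silent outside G2 and mitosis. The promoter of MKI67, the proliferation marker Ki-67, shows it at 2 places close to the start. It was picked after the values were seen. It lies at chr10:128126374-128126673 on the minus strand of GRCh38.p14 (RefSeq), and capitals mark TTTGAA.
MKI67: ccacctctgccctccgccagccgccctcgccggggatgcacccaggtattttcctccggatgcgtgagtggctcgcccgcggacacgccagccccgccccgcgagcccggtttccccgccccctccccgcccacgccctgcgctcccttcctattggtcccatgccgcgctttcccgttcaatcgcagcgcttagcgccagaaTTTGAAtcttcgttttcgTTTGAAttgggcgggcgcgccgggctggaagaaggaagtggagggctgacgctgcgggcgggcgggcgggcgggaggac
The matches lie at -47 to -42 and -29 to -24. With both strands searched, TTTGAA was present in 26 of 37 promoters of the mitotic list (70.3%) and in 15.4% of all promoters. CCAAT was present in 28 of the 37 (75.7%) and in 35.7% of all promoters.

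AURKA and AURKB, the Aurora kinases of the spindle poles and of chromosome alignment, were among the rises. AURKA had 4714, 4330 and 4390 on crizotinib arrays, against 2992 and 2904 on control arrays (log2 change 0.60 ± 0.08 SE, limma adjusted p = 0.00281). AURKB had 2581, 2762 and 2641 with crizotinib and 1663 and 1721 in control (log2 change 0.65 ± 0.10 SE, limma adjusted p = 0.00452). In both, the groups were clearly apart, with rises of 1.52-fold and 1.57-fold. MKI67 had 189.5, 206 and 162 with crizotinib and 109 and 125 in control, without overlap (log2 change 0.66 ± 0.16 SE, limma adjusted p = 0.0324). The kinetochore genes NUF2 (0.64), NDC80 (0.51) and TTK (0.55), the spindle genes HMMR (0.62) and KIF23 (0.50), the phosphatase CDC25C (0.53), which opens entry to mitosis, and TOP2A (0.47), the DNA topoisomerase of dividing cells, were higher too. The core drivers CCNB1 (0.30, limma adjusted p = 0.148), CDK1 (0.20, adjusted p = 0.273) and PLK1 (0.02, adjusted p = 0.968) were not called, though a second CDK1 probe gave 0.62. The group count rested on few arrays. It was 3 without control replicate 1, 4 without control replicate 2, 5 without crizotinib replicate 2, 12 without crizotinib replicate 1 and 15 without crizotinib replicate 3, and only AURKA and AURKB were called in all 5. With scaling to the median of all probes 6 were called, each of them higher, and 0 on the arrays that both tables put in the same group.

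DNA replication genes were mixed. Of 34 measured, RFC4, a clamp loader subunit, was higher (0.49), MCM6, a helicase subunit, was lower (-0.36), and E2F2, an activator of S-phase genes, was lower (-0.45), with a median of -0.09. That is 8.82% called, near the 9.8% of all genes. The calls of RFC4 and E2F2 were lost when any array but crizotinib replicate 3 was left out, and that of MCM6 when any of the 5 arrays was. Among 18 genes of G1 control, 2 rose and 2 fell, 22.2% called against 9.8% of all genes, with a median of 0.03. CCNA1, a cyclin A gene chiefly of the germ line, had 284, 289 and 288 on crizotinib arrays, against 87.5 and 80.9 on control arrays. The 3 crizotinib arrays were nearly equal, and the rise was 3.41-fold (log2 change 1.77 ± 0.15 SE, limma adjusted p = 0.000163). CCNE1, the cyclin of S-phase entry, had 268, 278 and 238 with crizotinib and 396 and 452 in control, all crizotinib arrays lying below both controls (log2 change -0.70 ± 0.10 SE, limma adjusted p = 0.00445). The other called members were CDKN1B, higher, and CCND1, lower, as given above.

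Cytokine genes held both extremes of the comparison. CXCL8, interleukin-8, is a neutrophil attractant that melanoma cells secrete. Its promoter is shown because it was the largest fall of the NF-kB and cytokine list. Its AP-1 and NF-kB sites, the end points of ERK and inflammatory signalling, sit close to the start. It lies at chr4:73740319-73740618 on the plus strand of GRCh38.p14 (RefSeq). Capitals mark TGANTCA, the AP-1 element at -137 to -131, and GGAATTTCC, an NF-kB element at -91 to -83.
CXCL8: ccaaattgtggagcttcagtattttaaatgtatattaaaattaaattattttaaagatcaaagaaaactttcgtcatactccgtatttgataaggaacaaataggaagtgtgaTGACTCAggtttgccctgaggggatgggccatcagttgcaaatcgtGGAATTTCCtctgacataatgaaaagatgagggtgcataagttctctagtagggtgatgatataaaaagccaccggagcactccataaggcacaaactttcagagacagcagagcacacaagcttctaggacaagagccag
On both strands, TGANTCA occurred in 7.76% of all promoters and GGAATTTCC in 0.472%.

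CXCL8 had 1675, 1399 and 1760 on crizotinib arrays, against 6457 and 6400 on control arrays. It fell by 2.0 on the log2 scale, the furthest of all genes called (SE 0.12, limma adjusted p = 2.17e-05). The interleukin-1 genes IL1A and IL1B fell as well. IL1A had 271, 271 and 227 with crizotinib and 627 and 526 in control, without overlap (log2 change -1.17 ± 0.13 SE, limma adjusted p = 0.000912). IL1B had 59.1, 53.3 and 59.5 with crizotinib and 118 and 126 in control, likewise without overlap (log2 change -1.09 ± 0.11 SE, limma adjusted p = 0.000726). IL24, a cytokine of the interleukin-10 family first found in differentiating melanoma cells, had 549.7, 653 and 564 with crizotinib, against 159 and 168 in control. This 3.59-fold rise was the largest of all called genes (log2 change 1.84 ± 0.11 SE, limma adjusted p = 2.17e-05). These 4 were the calls among 12 measured genes of the NF-kB and cytokine list (33.3%, against 9.8% of all genes), whose median was -0.06. They kept their calls with any array left out, and scanner signals gave 4 higher and 4 lower under each of 3 scalings.

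The TGF-beta, BMP and Notch pathways control differentiation and invasion, and most of the called genes were lower. Of 14 measured TGF-beta and BMP genes, 1 rose and 5 fell, 42.9% called against 9.8% of all genes. A negative difference was found for 12 of the 14, against 5631 of all 10330 genes, and the median was -0.32. PMEPA1, a TGF-beta target that inhibits SMAD signalling, had 1074, 1096 and 1271 on crizotinib arrays, against 4004 and 3803 on control arrays (log2 change -1.77 ± 0.13 SE, limma adjusted p = 9.94e-05), and -1.47 at a second probe. ID1, the BMP-induced inhibitor of differentiation factors, had 882, 841 and 794 with crizotinib and 1810 and 2046 in control (log2 change -1.20 ± 0.10 SE, limma adjusted p = 0.00024). BAMBI, a decoy receptor of the pathway, had 525, 574 and 644 with crizotinib and 1023 and 1028 in control (log2 change -0.82 ± 0.11 SE, limma adjusted p = 0.00296). In all 3 genes no crizotinib array reached a control. The matrix protein gene TGFBI (-0.55) and the receptor gene TGFBR2 (-0.54) were lower, and TGIF1, a SMAD corepressor, was higher (0.49). TGIF1 was not called without control replicate 1 (adjusted p = 0.0839) or control replicate 2 (adjusted p = 0.0658), nor TGFBR2 without control replicate 1 (adjusted p = 0.0948).

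Of 8 Notch genes, 3 fell and 0 rose, 37.5% called against 9.8% of all genes, with a median of -0.38. A negative difference was found for 5 of the 8, against 5631 of all 10330 genes. JAG1, a Notch ligand, had 120.1, 123 and 102 with crizotinib, against 276 and 260.5 in control (log2 change -1.23 ± 0.12 SE, limma adjusted p = 0.000643). HES1, the classic Notch target repressor, had 102, 111 and 109.8 with crizotinib and 264 and 289 in control (log2 change -1.36 ± 0.10 SE, limma adjusted p = 0.000131). HEY1, another target repressor, was lower (log2 change -0.69, limma adjusted p = 0.0167). Crizotinib and control arrays did not overlap for any of the 3, but HEY1 was not called without control replicate 1 (adjusted p = 0.118) or control replicate 2 (adjusted p = 0.0547). Of 16 YAP targets, which respond to cell shape and contact, 2 fell and 1 rose, 18.8% called against 9.8% of all genes, with a median of 0.01. CCN2, the connective tissue growth factor, had 1650, 1700 and 1836 on crizotinib arrays and 2992 and 2842 on control arrays (log2 change -0.76 ± 0.09 SE, limma adjusted p = 0.00185). EDN1, the vasoconstrictor endothelin-1, had 59.1, 55.2 and 74.6 with crizotinib, against 169 and 157 in control (log2 change -1.38 ± 0.16 SE, limma adjusted p = 0.00117). Both genes were below the controls on every crizotinib array, and the rise of AJUBA (0.46), a LIM protein of cell junctions, was called only with every array or without crizotinib replicate 3 (adjusted p of 0.0683 to 0.202 otherwise).

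Genes of hyaluronan and the matrix were mostly below control. Of 19 measured, 7 were lower and 0 higher, 36.8% against 5.34% of all genes lower. A negative difference was found for 17 of the 19, against 5631 of all 10330 genes, and the median was -0.32. Hyaluronan, a long sugar polymer of the matrix, is made by the HAS synthases and broken down by CEMIP and the HYAL enzymes. HAS3 had 94.3, 85.1 and 72.2 on crizotinib arrays, against 331 and 262 on control arrays, a clear separation (log2 change -1.82 ± 0.14 SE, limma adjusted p = 0.000139). CEMIP had 154, 168 and 192 with crizotinib and 549.7 and 453 in control (log2 change -1.55 ± 0.13 SE, limma adjusted p = 0.00017). HAS2 had 24.0, 27.4 and 31.5 with crizotinib and 61.7 and 59.3 in control, and none of the crizotinib arrays was above background. It was therefore at least 1.5-fold lower, a bound taken against the lowest level above background (limma adjusted p = 0.000736), and a second probe gave -0.16. The degrading enzyme HYAL2 was lower as well (-0.48), a call lost without control replicate 1 (limma adjusted p = 0.0743) or control replicate 2 (limma adjusted p = 0.0676). The basement membrane collagen COL4A1 (-0.57), the plasminogen activator PLAT (-0.71) and the integrin ITGB3 (-0.94) made up the rest. The number lower was 4 without control replicate 1, 6 without control replicate 2 and 7 without each crizotinib array. Without control replicate 1, ITGB3 (limma adjusted p = 0.0853) and COL4A1 (limma adjusted p = 0.0548) were not called either.

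The 12 largest rises and 12 largest falls held further genes outside these pathways. FNIP1, a folliculin partner that acts on nutrient and AMPK signalling, had 446, 428 and 372 with crizotinib, against 139.8 and 181 in control, a 2.6-fold rise (log2 change 1.38 ± 0.16 SE, limma adjusted p = 0.00117). PTPRR, a tyrosine phosphatase that acts on ERK, had 40.5, 49.1 and 48.6 with crizotinib and 19.4 and 18.4 in control. Its control arrays were not above background, so it was at least 1.14-fold higher (limma adjusted p = 0.000948), and a second probe gave -0.02. SH2D5, an adaptor gene, had 88.6, 71.2 and 115 with crizotinib and 33.5 (below background) and 46.4 in control (log2 change 1.19 ± 0.22 SE, limma adjusted p = 0.0119), with a second probe at 0.05. Its call was lost without control replicate 1 (adjusted p = 0.1). The pseudogenes HTATSF1P2 and UBE2MP1 were at least 1.46-fold and at least 1.74-fold higher, and pseudogene probes can share sequence with the parent gene. HTATSF1P2 was lost without control replicate 2 (adjusted p = 0.0538). UBE2MP1 was lost without control replicate 1 (adjusted p = 0.173) and without each crizotinib array (adjusted p = 0.061, 0.0571 and 0.0521).

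Among the falls, ST8SIA5, a sialyltransferase of ganglioside synthesis, had 36.4, 46.9 and 66.5 on crizotinib arrays, against 140.1 and 154 on control arrays (log2 change -1.60 ± 0.24 SE, limma adjusted p = 0.00425). RNU4ATAC, a small nuclear RNA of the minor spliceosome, had 40.3, 34.3 and 43.5 with crizotinib and 93.0 and 95.4 in control (log2 change -1.27 ± 0.12 SE, limma adjusted p = 0.000597). Both were below the controls on each crizotinib array. Their lowest crizotinib arrays, 36.4 and 34.3, lay under the background limit of 40.3, so the size of these falls is uncertain. CYP4B1, a cytochrome P450, was not above background with crizotinib (25.5, 24.6 and 20.7, against 55.0 and 60.6 in control) and was at least 1.43-fold lower. MEX3B, an RNA-binding protein, had 81.3, 72.0 and 109 with crizotinib and 194 and 211 in control (log2 change -1.23 ± 0.24 SE, limma adjusted p = 0.0132). LOC730101 had 28.9 (below background), 41.6 and 51.4 with crizotinib and 91.5 and 96.0 in control (log2 change -1.24 ± 0.22 SE, limma adjusted p = 0.00834), with -0.35 at a second probe. Each of these 3 calls was lost when either control array was left out. Adjusted p was 0.0571 and 0.0658 for CYP4B1, 0.0717 and 0.0795 for MEX3B and 0.0571 and 0.0582 for LOC730101, without control replicates 1 and 2 in that order.

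**Figure D3:**
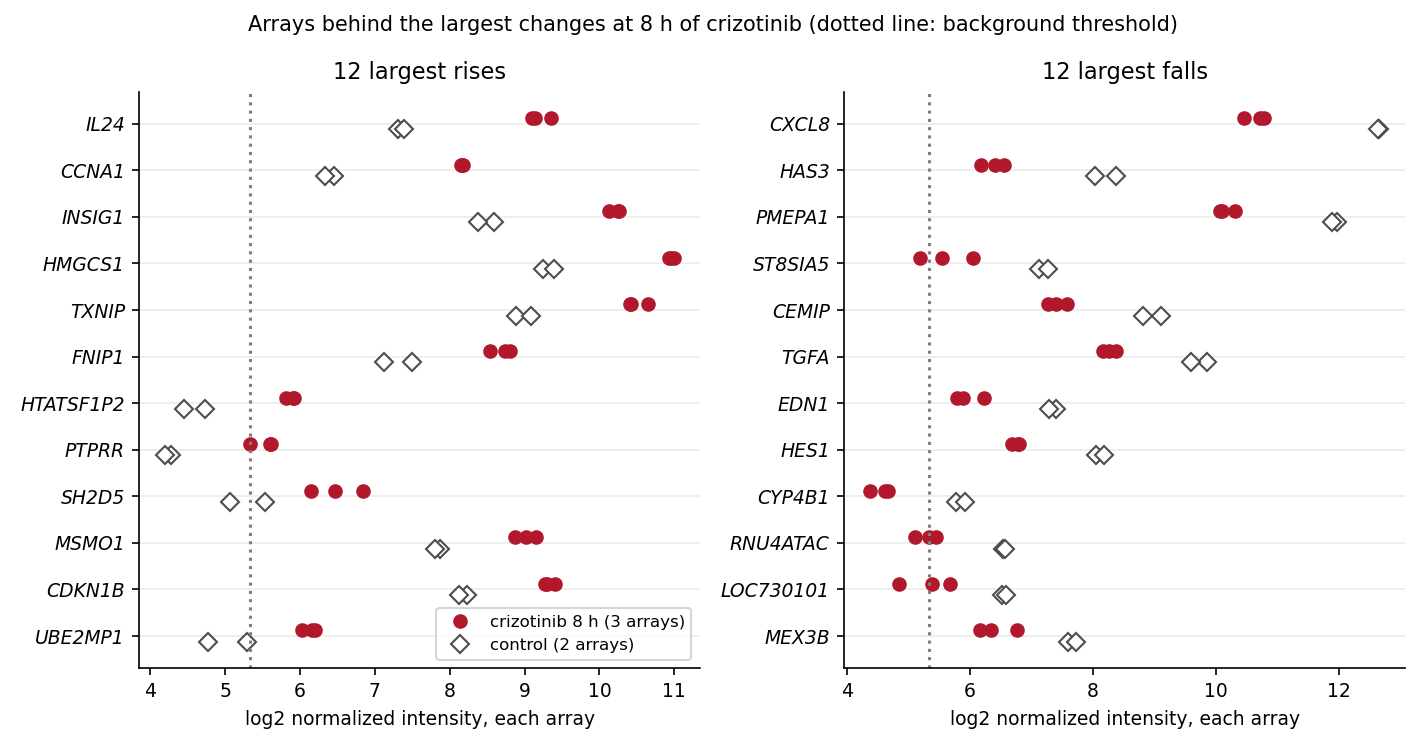
Log2 intensity of the 24 genes with the 12 largest rises and 12 largest falls, 1 point per array (3 crizotinib 8 h and 2 control). In each gene all crizotinib arrays lie on 1 side of both controls, which the choice of these genes required.

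In the lineage and stress lists the called genes were mostly lower. SOX10 had 2514, 2211 and 2302 with crizotinib, against 3506 and 3609 in control, with every crizotinib array lower (log2 change -0.60 ± 0.08 SE, limma adjusted p = 0.00244). The melanocortin receptor gene MC1R was lower (log2 change -0.48), a call lost without control replicate 1 (adjusted p = 0.0573) or control replicate 2 (adjusted p = 0.0793), and the other 6 of 8 measured lineage genes were not called, so 2 of 8 were, against 9.8% of all genes. Of 14 chaperones of the endoplasmic reticulum, 4 were lower (28.6%, against 5.34% of all genes lower), SDF2L1 (-0.59), MANF (-0.46), CRELD2 (-0.43) and HSPA5 (-0.34), and 0 higher. Of 15 heat shock genes 3 were lower and 0 higher, HSPA1A (-0.62), BAG3 (-0.35) and HSPB1 (-0.34). The near-identical HSPA1B gave -0.03, and signal of the pair cannot be assigned to 1 gene with certainty. Of 27 ATF4 targets, DDIT3 was higher (0.61) and CEBPB (-0.40) and WARS1 (-0.34) were lower, 11.1% called and so near the 9.8% of all genes. All chaperone, heat shock and ATF4 calls were lost when either control array was left out.

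Of 19 hypoxia targets, 3 fell and 0 rose, 15.8% called against 9.8% of all genes, with a median of -0.11. PFKFB3, which makes the main activator of glycolysis, had 1412, 1421 and 1441 on crizotinib arrays, against 2276 and 2693 on control arrays (log2 change -0.80 ± 0.10 SE, limma adjusted p = 0.00238), with a second probe at -0.17. PFKFB4, of the same family, was lower (log2 change -0.52). ANGPTL4, an inhibitor of lipoprotein lipase, was not above background with crizotinib and at least 1.36-fold lower, while a second probe gave 0.13. In 22 interferon genes IFIT3 (0.57) and the antigen-presentation gene B2M (0.63, second probe 0.01) were higher and IRF1 (-0.49) was lower. That is 13.6% called, against 9.8% of all genes. The p53 list of 19 had 1 call (5.26%, against 9.8% of all genes), SESN1. The BCL2 family of 11 had BCL2 (0.48) higher and PMAIP1 (-0.48) lower, 18.2% called against 9.8% of all genes. The clock gene CRY1 was higher by 0.38, with -0.14 at a second probe. PFKFB4 and SESN1 were not called when either control array was left out. BCL2, PMAIP1 and CRY1 were called only with every array or without crizotinib replicate 3, and without the others their adjusted p was 0.0537 to 0.119 for BCL2, 0.0881 to 0.226 for PMAIP1 and 0.103 to 0.156 for CRY1. IFIT3 was lost without control replicate 2 (adjusted p = 0.179) or any crizotinib array, and IRF1 without control replicate 2 (adjusted p = 0.0568). Ribosome biogenesis (22 genes) and glycolysis (17 genes) had 0 calls in limma, with medians of -0.01 and -0.02 and with 3 and 2 genes at an unadjusted p under 0.05.

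**Figure D4:**
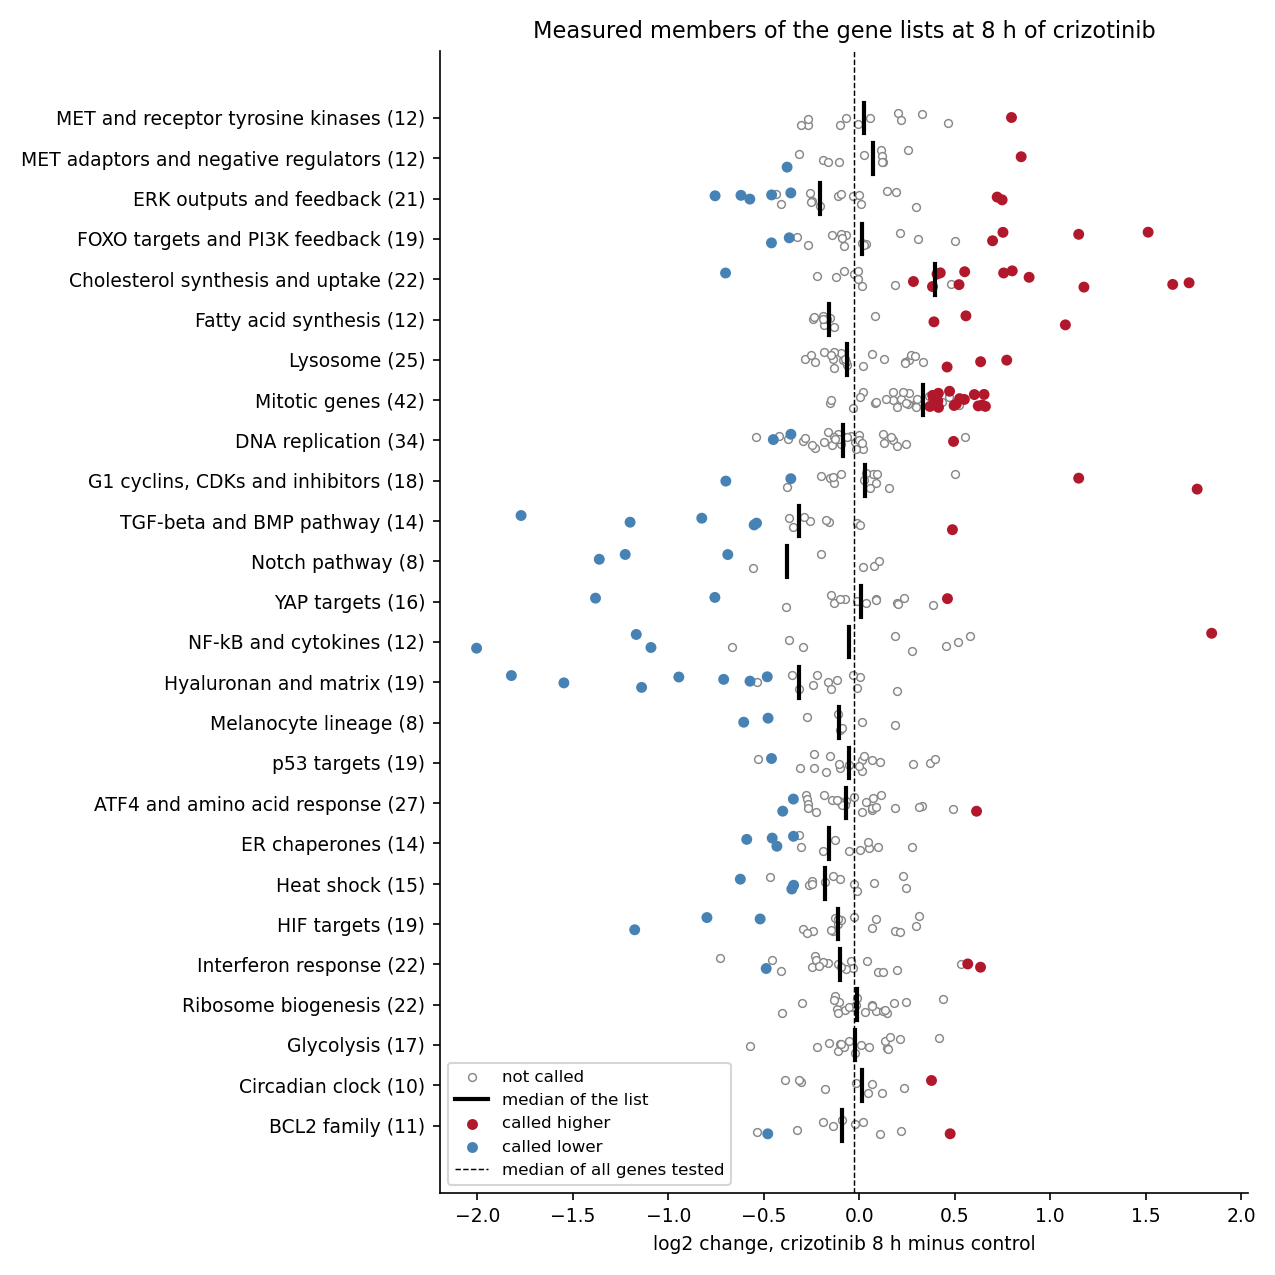
Log2 change at 8 h of crizotinib against control (horizontal axis) of every measured gene of each list shown, with called genes filled, the list's median as a bar and the median of all genes dashed. The cholesterol list (12 higher, 1 lower) and the mitotic list (16 higher, 0 lower) held the most rises, and the hyaluronan and matrix list (0 higher, 7 lower) the most falls.

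The 24 h crizotinib arrays placed the early changes in time. Set directly against 8 h, which leaves the controls out, 38.6% of genes were called at 24 h (21.2% higher, 17.4% lower). Genes named for their 8 h values share the 8 h arrays with this difference, which is therefore not independent of the 8 h change. Of the 22 cholesterol genes 18 were higher at 24 h than at 8 h and 0 lower, with a median of 1.02. HMGCS1 was higher at 24 h than at 8 h by 2.18 and INSIG1 by 1.11 on the log2 scale. Mitotic genes went the opposite way, with 41 of 42 lower at 24 h than at 8 h and a median of -1.09. AURKA differed by -1.10 and MKI67 by -1.77 on the log2 scale, more than their rises at 8 h. Of 34 replication genes 33 were lower, and of 19 p53 targets 17 were higher, with a median of 1.25. Of 25 lysosomal genes 16 were higher and 1 lower.

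Single early genes took different courses. Against the same controls, 31% of genes were called at 24 h of crizotinib (15.5% higher, 15.5% lower), and values against control at the different times are therefore not independent. IL24 rose further, by a log2 difference of 2.38 at 24 h over 8 h (limma adjusted p = 6.99e-07). CDKN1B (-1.05) and EGFR (-0.68) were lower at 24 h than at 8 h. TXNIP and FNIP1 differed by 0.33 (limma adjusted p = 0.0528) and 0.00 (adjusted p = 0.99), and neither was called. Among the early falls, TGFA (1.55), CEMIP (1.42), PMEPA1 (1.28) and IER3 (0.66) were higher at 24 h than at 8 h. IL1A (2.15) and IL1B (2.65) were higher by more than their fall at 8 h. CXCL8 was higher by only 0.52, while EDN1 (-0.68) and CCN2 (-0.84) were lower again.

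**Figure D5:**
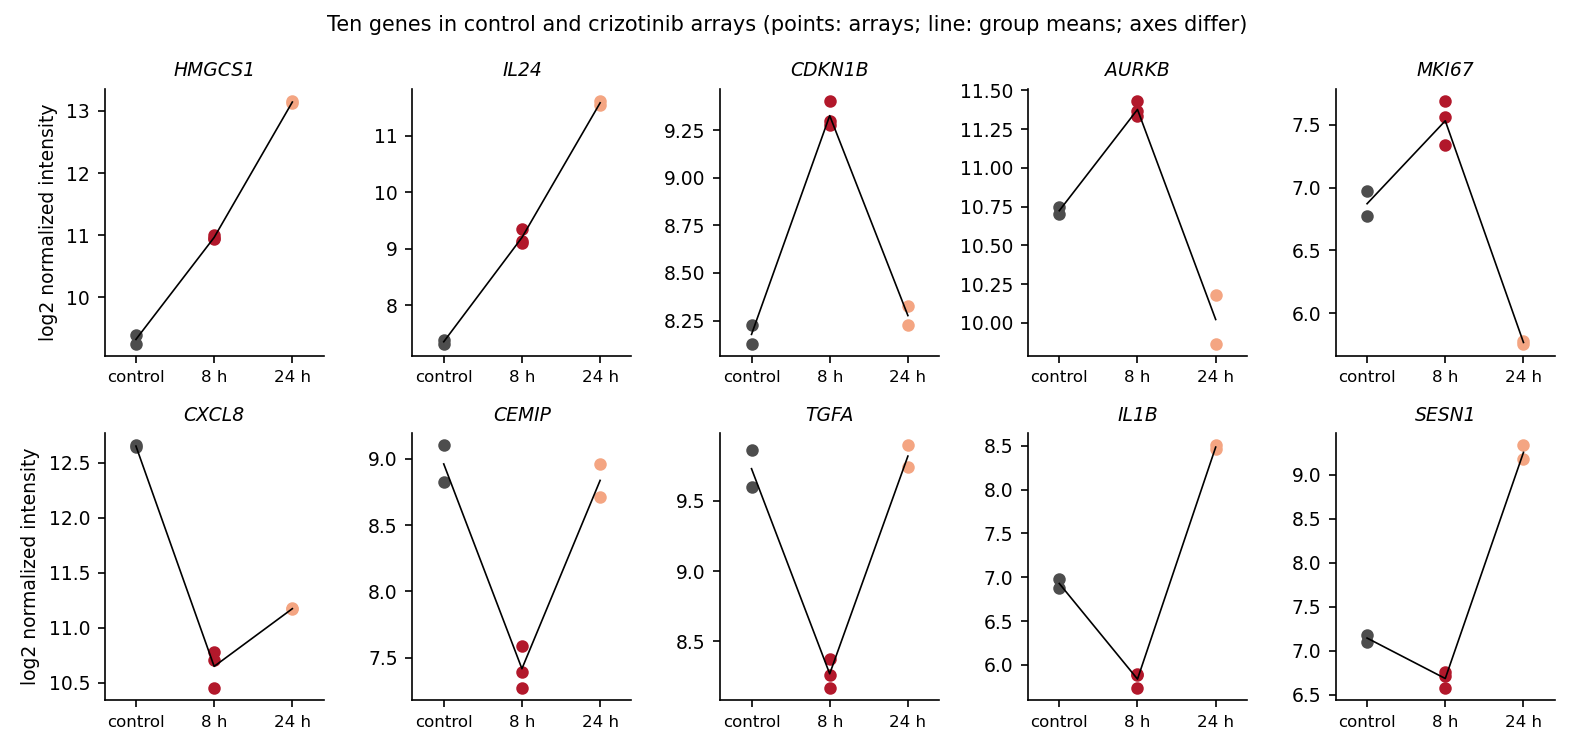
Log2 normalized intensity (vertical axes, which differ) of 10 genes on each control, crizotinib 8 h and crizotinib 24 h array, with lines through the group means. HMGCS1 and IL24 are highest at 24 h, CDKN1B, AURKB and MKI67 are highest at 8 h, and CXCL8, CEMIP, TGFA, IL1B and SESN1 are lowest at 8 h.

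The 8 h ciclopirox arrays served as a test of difference from the other drug at the same time and at its own 75% inhibitory concentration. Against the same controls, 11.1% of genes were called with ciclopirox (4.39% higher, 6.75% lower). Directly between the drugs 10% of genes were called, 5.15% higher and 4.87% lower with crizotinib. For genes named by their 8 h change, this difference reuses the same crizotinib 8 h arrays and is not independent of that change. Cholesterol genes were higher with crizotinib in 11 of 22 and lower in 1, with a median of 0.36, including HMGCS1 (1.38), INSIG1 (1.67) and MSMO1 (1.42). Mitotic genes were higher in 27 of 42 and lower in 0, with a median of 0.44. TXNIP (1.15), CDKN1B (1.05), FNIP1 (1.03), LPIN1 (1.43) and IL24 (2.26) were higher with crizotinib than with ciclopirox. CXCL8 (-1.54), ID1 (-0.98), JAG1 (-0.95), EDN1 (-2.67) and CCN2 (-1.62) were lower with crizotinib. For some of the early changes the difference between the drugs was not called at this number of arrays. IER3 differed by -0.01 ± 0.08, SOX10 by -0.01 ± 0.07, DUSP5 by -0.21 ± 0.08 and TGFA by -0.33 ± 0.11 (log2 difference and SE). Of the 12 largest falls, ST8SIA5 (0.10), CEMIP (0.30), CYP4B1 (-0.67), LOC730101 (-0.36) and MEX3B (-0.34) were not called between the drugs either. Nor were PTPRR (0.29) and SH2D5 (0.29) of the 12 largest rises. Against control, 7 of 19 hyaluronan and matrix genes were lower with ciclopirox and 1 higher, the same number lower as with crizotinib. Directly between the drugs, 5 were lower and 1 higher with crizotinib.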

How the data were processed

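Gene expression was measured on 12 Illumina bead arrays of 1 chip, from 300 ng of total RNA each per the labels' protocols, and chip position and group cannot be told apart. Per the file headers, the authors deposited a scanner table of 47231 probes, holding each array's averaged signal intensity with its detection p-value, where 28.8% of signals were below 0. GenomeStudio is named in the submitters' processing notes. A second deposited table, named by sample, holds the authors' normalized intensity of 38220 probes, linear values of 12.0 to 38205.3. How it was normalized is not given in the sources used.

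Log2 of the normalized intensity was fitted in limma 3.58.1 (R 4.3.3), with 1 mean for each of 5 groups, 7 residual degrees of freedom, two-sided moderated tests and Benjamini-Hochberg adjustment over all genes. The 16563 probes with detection (p-value below 0.01) in 2 or more arrays were kept, and the probe of highest mean stood for each of 10330 genes. A symbol came from the platform annotation for 27002 probes, while 4 had several and 11214 none, and 26968 probes matched the RefSeq table by gene number. Background was the level, 40.3, that 99% of the 20196 probes without detection on any array did not exceed. A gene below it on all arrays of 1 group has a bound in place of a fold change.

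Named genes are the 12 largest rises and the 12 largest falls among called genes with non-overlapping groups, the drug's targets MET, ALK and ROS1, and members of 32 lists (473 of 631 listed genes measured). The members and lists were chosen with earlier results of these data known. Of 38 other probes of called named genes, 34 had the same sign, and the 4 exceptions were in EGFR, PTPRR, CRY1 and ANGPTL4. Replicate numbers did not pair the samples (correlations of deviations from -0.03 to 0.03 between crizotinib and control arrays). The number of arrays limits the precision. Alternatives covered the arrays fitted, the filter, the probe choice, scanner signals with other scalings and names, the replicate number as a block and left-out arrays. Where scanner columns were matched to samples, this was done by their values. The counts under other scalings of the scanner signals and on the arrays that both tables name alike rest on that match, and all other results do not.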

Additional observations from a re-analysis of the deposited data

Results flagged for a closer look

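Several genes changed one way at 8 h of crizotinib and the opposite way at 24 h of crizotinib or at 8 h of ciclopirox, each called against the same 2 control arrays, and the direct difference between the treated groups was called as well. The values here are those direct log2 differences. They leave the controls out but reuse the crizotinib 8 h arrays by which the genes were named. Chance highs or lows on those arrays would enter both the 8 h change and the difference, so the 2 are not independent.

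At 24 h minus 8 h of crizotinib, the mitotic genes that had risen at 8 h stood at -1.10 for AURKA, -1.36 for AURKB, -1.77 for MKI67, -1.42 for TTK, -1.31 for CDC25C, -1.24 for TOP2A, -1.63 for KIF23 and -1.46 for NDC80. RFC4 stood at -1.24, CRY1 at -0.82 and BCL2 at -0.82. Genes that had fallen at 8 h stood higher at 24 h, by 2.15 for IL1A, 2.65 for IL1B, 2.57 for SESN1 and 1.08 for PFKFB4. Against control, MKI67 was 0.66 at 8 h and -1.11 at 24 h, and IL1B was -1.09 at 8 h and 1.56 at 24 h.

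At crizotinib 8 h minus ciclopirox 8 h, IL24 differed by 2.26, EDN1 by -2.67, CCN2 by -1.62, ANGPTL4 by -2.83 and PFKFB4 by -1.13. Against control, EDN1 was -1.38 with crizotinib and 1.29 with ciclopirox, and IL24 was 1.84 with crizotinib and -0.41 with ciclopirox. ANGPTL4 was not above background on the crizotinib 8 h arrays, and its second probe differed from control by 0.13, so its difference rests on 1 probe. These genes were examined because they were named in the main comparison.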

How the results depend on the processing

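Against 1012 genes called at 8 h of crizotinib (460 higher, 552 lower), a fit of only the 2 groups called 251 (122 higher, 129 lower), and no detection filter left 310 (139 higher, 171 lower). Scanner signals scaled to the median of all probes called 185 higher and 824 lower. With scanner columns named by the descriptions 0 genes were called, with 0 higher and 0 lower (limma, 1539 at an unadjusted p under 0.05), and 1010 of the 1012 genes had the same sign. By their values, those names keep both control arrays and crizotinib 8 h replicates 2 and 3 in their groups. The 1012 genes were also chosen by the main fit, so their shared sign cannot decide between the names. On the arrays that both tables name alike, an alternative chosen after seeing the data, 10 were called (6 higher, 4 lower). With the replicate number as a block, which does not pair the samples, 688 were called, of which 304 were higher and 384 lower. Leaving out 1 array gave 216 to 869 genes in all, 88 to 386 higher and 128 to 483 lower. The call count stayed within 1.5 times under detection on all arrays (1332), every probe tested (1191), scanner signals with quantile normalization (1249) and scaling to the median of detected probes (1088, chosen after seeing the data).

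For 24 h against 8 h of crizotinib (3988 genes), the described names gave 0 (limma, 662 at an unadjusted p under 0.05) and left-out arrays 2558 (without crizotinib 24 h replicate 1) to 3744. Scaling to the median of all probes called 3897, of which 35.1% were higher, against 54.9%. The block gave 3629. For crizotinib against ciclopirox at 8 h (1035 genes), no detection filter gave 481, the described names 2166, left-out arrays 503 to 707 and the block 753.

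Of the 107 called named genes, 0 changed sign under any alternative run on them. With only the 2 groups fitted or with arrays left out, no sign could change, because the groups did not overlap in any called gene. Calls were kept by 57 with only the 2 groups fitted, 92 with the block and 87 to 103 under the 3 scanner scalings. With 1 array left out 51 to 95 kept their call, and 10 did on the arrays that both tables name alike. The cause of these differences was not tested, beyond the fewer arrays or more probes in the fits concerned. With 2 control arrays, changes under 0.27 on the log2 scale were not called, and dim genes have only a bound.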
